A study of Mus musculus with 6 samples.

Results

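The genes described here encode chains of the receptors for IL-1, IL-18, IL-33 and IL-12 in mouse cDNT. These T cells are defined as lacking CD4 and CD8 and were converted ex vivo from CD4+CD25- T cells. The 7 genes, Il18r1, Il18rap, Il1rl1, Il1r2, Il1rap, Il12rb1 and Il12rb2, were chosen by name as the rows of these chains among the 29393 genes of the deposited count table. Earlier results of these data were known when they were chosen. The question was how their RNA levels differed between cDNT kept with IL-10 and cDNT kept without it. In both groups the cells came from adult C57BL/6 mice, were labelled as double negative T cells of the spleen and were sorted by flow cytometry. The W/ IL-10 group received IL-10 at 50 ng/ml for 24 h, the W/O IL-10 group received none, and each had 3 libraries. The study's methods describe CD4+CD25- T cells of CD45.1 mice, from spleen and lymph nodes, cocultured with mature dendritic cells and IL-2 before the sort, and stimulated with anti-CD3/CD28 antibodies besides IL-10. The labels do not mention these antibodies, the coculture or the CD45.1 marker, and they name another library kit than the methods. The series' design text describes sequencing in duplicate although 3 samples are listed per group, so what n = 3 stands for is not settled by the labels. Nothing states that the libraries of a group came from separate cultures or mice, so the p-values measure the spread between these libraries, which may be technical.

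IL-18 is bound by the chain encoded by Il18r1, which then pairs with the accessory chain encoded by Il18rap, and the pair signals through MyD88 and NF-kB. IL-33 uses the chain ST2, encoded by Il1rl1, which pairs with the accessory protein encoded by Il1rap. The same accessory protein also serves the signaling IL-1 receptor encoded by Il1r1, whereas Il1r2 encodes a decoy that binds IL-1 without signaling. IL-12 is bound by the chains encoded by Il12rb1 and Il12rb2, which signal through JAK2, TYK2 and STAT4, and IL-12 and IL-18 together are known for driving IFN-γ in T cells and NK cells. ST2 is known on mast cells, basophils and type 2 lymphocytes.

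Of the 7 genes, 4 lie in 1 cluster on the plus strand of chromosome 1 (GRCm38, GENCODE M21 gene models). These are Il1r2 (ENSMUSG00000026073, chr1:40074079-40125231), Il1rl1 (ENSMUSG00000026069, chr1:40429570-40465415), Il18r1 (ENSMUSG00000026070, chr1:40465552-40500854) and Il18rap (ENSMUSG00000026068, chr1:40515362-40551705). Il1rap (ENSMUSG00000022514) lies on the plus strand of chromosome 16 at chr16:26581704-26730117, Il12rb1 (ENSMUSG00000000791) on the plus strand of chromosome 8 at chr8:70808449-70821424, and Il12rb2 (ENSMUSG00000018341) on the minus strand of chromosome 6 at chr6:67291318-67376188. Only 136 bases separate the end of Il1rl1 from the start of Il18r1, genes that had log2 fold changes of opposite sign in these cells (given further on). The upstream sequence of the 3 neighbours Il1rl1, Il18r1 and Il18rap is printed because the IL-18 receptor genes were called higher W/ IL-10 and the adjacent Il1rl1 was not. The bases come from the promoter windows of RefSeq (GRCm38.p6), in which 6 of the 7 genes have an entry, with 9 windows among them, and Il12rb1 has none. Each stretch lies on the plus strand, ends before an annotated exon, and is written 5′ to 3′. Capitals mark matches to the STAT-type motif TTCNNNGAA or to the GATA-type motif GATAA on either strand (TTATC where it lies on the minus strand). The STAT-type motif reads the same on both strands at its fixed letters, and no match of one motif overlapped a match of the other.
Il1rl1, 250 bases before its distal start, chr1:40429320-40429569: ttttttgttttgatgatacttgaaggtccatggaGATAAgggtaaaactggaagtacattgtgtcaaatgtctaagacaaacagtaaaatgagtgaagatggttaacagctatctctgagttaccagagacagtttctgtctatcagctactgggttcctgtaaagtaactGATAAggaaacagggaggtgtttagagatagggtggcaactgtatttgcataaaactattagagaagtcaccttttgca
Il1rl1, 248 bases before its proximal start, chr1:40439379-40439626: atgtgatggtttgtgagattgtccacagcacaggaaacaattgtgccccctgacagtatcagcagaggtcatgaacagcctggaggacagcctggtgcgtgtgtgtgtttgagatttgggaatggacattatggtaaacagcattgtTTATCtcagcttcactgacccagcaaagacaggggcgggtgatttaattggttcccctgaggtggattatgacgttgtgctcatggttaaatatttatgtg
All 136 bases between Il1rl1 and Il18r1, chr1:40465416-40465551: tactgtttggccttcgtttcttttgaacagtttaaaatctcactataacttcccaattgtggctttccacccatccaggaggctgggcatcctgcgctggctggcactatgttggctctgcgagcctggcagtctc
Il18r1, 159 intronic bases between its alternative 5′ exons, chr1:40465811-40465969: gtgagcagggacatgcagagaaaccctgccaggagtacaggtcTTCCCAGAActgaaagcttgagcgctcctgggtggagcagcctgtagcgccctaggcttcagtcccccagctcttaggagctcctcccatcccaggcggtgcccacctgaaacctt
Il18rap, 250 bases before its start, chr1:40515112-40515361: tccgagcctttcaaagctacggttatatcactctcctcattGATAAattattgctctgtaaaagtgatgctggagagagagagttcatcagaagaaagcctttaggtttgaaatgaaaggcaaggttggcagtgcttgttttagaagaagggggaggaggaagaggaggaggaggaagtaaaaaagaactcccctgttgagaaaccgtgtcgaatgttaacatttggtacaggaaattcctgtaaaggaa

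Both Il1rl1 starts had a GATAA match, with 2 matches before the distal start and 1 before the proximal start. The stretch before Il18rap had 1 match to GATAA and none to TTCNNNGAA. The stretch between Il1rl1 and Il18r1 held neither motif, and the intronic stretch of Il18r1 held 1 match to TTCNNNGAA. Among all 32851 promoter windows of the table, 22.58% held GATAA and 7.02% held TTCNNNGAA in the 250 bases before the start. In windows of 248 bases the share with GATAA was 22.44%. In windows of 159 bases 4.329% held TTCNNNGAA, and in windows of 136 bases the shares were 12.02% for GATAA and 3.641% for TTCNNNGAA. Of the 9 windows of the 6 genes, 3 held TTCNNNGAA, at the most downstream start of Il18r1 (2 matches, of which 1 lies in a 5′ exon and is not printed) and before Il1r2 and Il12rb2 (1 match each), which were not called. GATAA was held by 4 of the 9, before Il18rap, Il1r2 and both starts of Il1rl1. A match describes letters only.

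The libraries held 21619420 to 23967088 counts, and 3 counts, taken as the floor of the depth, were worth 0.122 to 0.146 CPM (counts scaled to the TMM-adjusted library total), which covers counting error only. Every one of the 7 genes had at least 10 counts in all 6 libraries, from 100 counts of Il1r2 to 6228 of Il18rap, so none of them fell below 10 counts in 3 libraries. edgeR's quasi-likelihood test was run on the 14916 genes that reached 10 counts in 3 or more libraries, with Benjamini-Hochberg adjustment over all of them, and genes were called at a fold change of at least 1.5 and an adjusted p under 0.05. By this rule 2 of the 7 genes were called higher W/ IL-10 and none was called lower, in edgeR as in DESeq2 and limma-voom, and 3 had an unadjusted p under 0.05 (edgeR), where 0.778% of all tested genes were called higher and 0.677% lower. The same 2 genes were the only ones of the 7 whose groups did not overlap, and they lay higher W/ IL-10, as 11.3% of all tested genes did, while 11.2% lay lower without overlap. These shares stand beside the counts of every list below. No share over all tested genes is given for an unadjusted p under 0.05, so counts by it are not read as an excess. Such values were common, as Il1rl1 had an adjusted p of 0.327 at an unadjusted p of 0.0462 (edgeR). The median log2 fold change (log2FC, W/ IL-10 against W/O IL-10) of the 7 genes was 0.08, beside 0.006 over all tested genes. The median over the tested genes fell with their GC content, from 0.237 in the class of lowest GC to -0.125 in that of highest. The longest transcripts of the 7 genes ranged from 42.1% GC in Il1rap to 58.4% in Il12rb1, whose class had a median of -0.078. Of the 2 called genes, Il18r1 had 44.0% GC, in a class with a median of 0.106, and Il18rap 45.1%, in a class with 0.015.

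**Figure D1:**
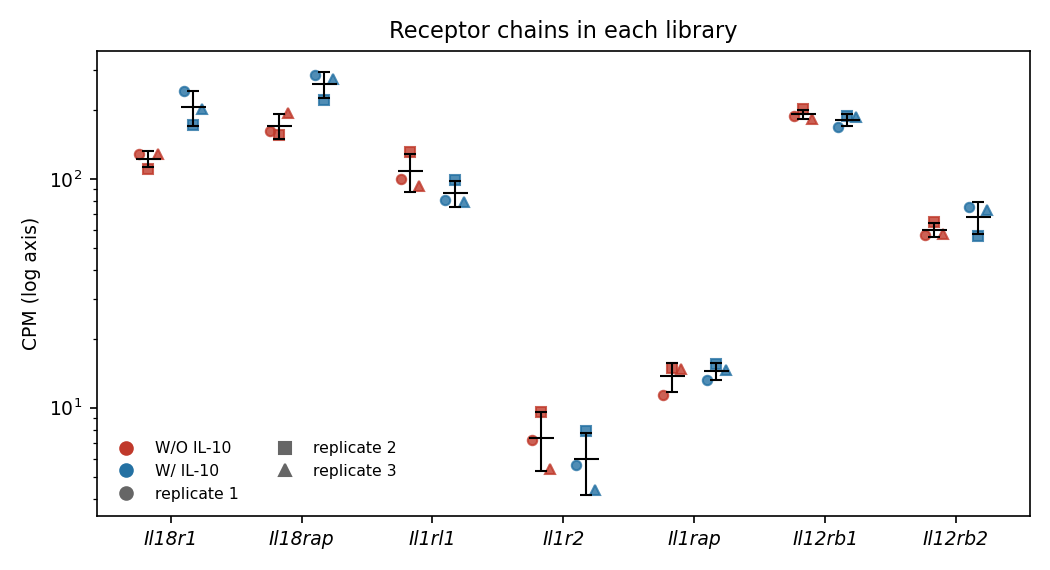
Expression of the 7 receptor chain genes in each library, in CPM on a log axis, with W/O IL-10 in red and W/ IL-10 in blue. Points are libraries with the replicate number as symbol, and black bars give the mean ± SD (n = 3). The blue points lie above all red points in Il18r1 and Il18rap, and the groups overlap in the other 5 genes.

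Both chains of the IL-18 receptor were higher W/ IL-10. Il18r1, the ligand-binding chain, had 129, 111 and 129 CPM in W/O IL-10 replicates 1 to 3 and 243, 172 and 203 CPM in W/ IL-10 replicates 1 to 3. The lowest W/ IL-10 library lay above the highest W/O IL-10 library, with replicate 1 the highest W/ IL-10 and replicate 2 the lowest in both groups. Its level went from 123 ± 10.4 to 206 ± 35.6 CPM (SD, n = 3), a fold change of 1.68 and a log2FC of 0.75 (standard error, SE, 0.13, 95% interval 0.46 to 1.03, adjusted p = 0.0247 by edgeR's test). Il18rap, the accessory chain, had 161, 156 and 194 CPM without IL-10 and 285, 221 and 273 CPM with IL-10, in the same order of replicates. Again no W/ IL-10 library fell into the W/O IL-10 range, and W/ IL-10 replicate 2 was the lowest of its group. The mean rose from 170.5 ± 20.9 to 259.6 ± 34.2 CPM (SD, n = 3), a fold change of 1.52 and a log2FC of 0.61 (SE 0.12, 95% interval 0.33 to 0.88, adjusted p = 0.0434 by the same edgeR test). For a single gene the two-sided exact permutation test of 3 libraries against 3 cannot give a p below 0.1, and it gave p = 0.1 for Il18r1 and for Il18rap.

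The ratio of the chains of this pair overlapped between the groups. Il18rap per Il18r1, as a ratio of CPM, was 1.25, 1.41 and 1.51 in the W/O IL-10 libraries and 1.18, 1.29 and 1.34 in the W/ IL-10 libraries, with overlapping groups (exact permutation test, two-sided p = 0.3). The summed level of 10 T cell markers also lay higher W/ IL-10, at 2307 to 2423 CPM against 1778 to 2196 CPM. Of the 10, 5 lay higher without overlap, as 11.3% of all tested genes did. Cd8b1 was the 1 of the 10 called higher, a call lost without W/O IL-10 replicate 2 (adjusted p = 0.103) and without W/ IL-10 replicate 1, 2 or 3 (adjusted p = 0.101, 0.0933 and 0.18, edgeR). Per 1000 CPM of these markers, Il18r1 had 58.6, 62.3 and 66.4 CPM without IL-10 and 100.2, 74.4 and 85.1 CPM with IL-10, again without overlap (p = 0.1 in the exact permutation test). Il18rap on that scale had 73.5, 87.5 and 100.3 CPM without IL-10 and 117.8, 95.7 and 114.3 CPM with IL-10, and the groups overlapped at W/ IL-10 replicate 2 (exact permutation p = 0.2). In bulk RNA, more cells of a type and more RNA per cell cannot be told apart.

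Neither call on the IL-18 receptor held with every library left out in turn. Il18r1 kept a log2FC of 0.61 to 0.86, but its adjusted p was 0.0804 without W/ IL-10 replicate 1, 0.134 without W/ IL-10 replicate 3, 0.101 without W/O IL-10 replicate 2 and 0.0539 without W/O IL-10 replicate 3. Il18rap kept 0.53 to 0.71, with an adjusted p of 0.168 without W/ IL-10 replicate 1, 0.208 without W/ IL-10 replicate 3 and 0.152 without W/O IL-10 replicate 2, and a log2FC of 0.56, below the fold limit, without W/O IL-10 replicate 1 (edgeR). With an offset for GC content and gene length, Il18rap had a log2FC of 0.57 (adjusted p = 0.0192), also below the fold limit, and Il18r1 had 0.67 (adjusted p = 0.0143).

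The IL-33 receptor chain and the IL-1 decoy receptor did not pass the test. Il1rl1, the gene of ST2, had 100.4, 131 and 93.0 CPM in W/O IL-10 replicates 1 to 3 and 81.0, 99.3 and 79.6 CPM in W/ IL-10 replicates 1 to 3. Replicate 2 was the highest library of both groups, and W/ IL-10 replicate 2 lay inside the W/O IL-10 range. The means were 108 ± 20.2 and 86.6 ± 10.98 CPM (SD, n = 3), a log2FC of -0.32 (SE 0.14, 95% interval -0.63 to -0.01), which did not pass after adjustment (adjusted p = 0.327, unadjusted p = 0.0462 by edgeR). Counts per gene do not separate the membrane form of ST2 from its soluble form. Il1r2 was scarce, with 7.22, 9.63 and 5.38 CPM without IL-10 and 5.63, 7.94 and 4.38 CPM with IL-10. Here too replicate 2 was the highest and replicate 3 the lowest of each group, and the groups overlapped. Its means of 7.41 ± 2.13 and 5.98 ± 1.81 CPM (SD, n = 3) gave a log2FC of -0.31 with a wide 95% interval of -0.92 to 0.30 (adjusted p = 0.641, edgeR).

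Within each group, Il1rl1 and Il1r2 had the same order of libraries as the summed markers of mast cells and basophils. The summed level of 8 such markers (Kit, Fcer1a, Ms4a2, Cpa3, Mcpt8, Mcpt4, Hdc and Gata2) was 1490.0, 1543 and 1228 CPM without IL-10 and 1089, 1178 and 934.8 CPM with IL-10, so that replicate 2 was the highest and replicate 3 the lowest of each group and the groups did not overlap. Cpa3, the largest part of the sum, Fcer1a and Mcpt4 each kept the order of the sum in both groups. Kit, Ms4a2, Mcpt8, Hdc and Gata2 did not, and Kit had 431, 419 and 416 CPM without IL-10 and 302, 318 and 326 with IL-10. All 8 markers passed the filter, and 3 of them were lower W/ IL-10 without overlap, as 11.2% of all tested genes were. Of the 8, 4 had an unadjusted p under 0.05, and 0 were called by edgeR or limma-voom, whereas DESeq2 called Gata2. Cpa3, a mast cell protease, had 684 ± 117 CPM without IL-10 and 515 ± 89.3 with IL-10 (SD, n = 3, log2FC -0.41, adjusted p = 0.26 by edgeR), and Kit, the receptor of stem cell factor, had 422 ± 7.82 and 315 ± 12.4 CPM (log2FC -0.42, adjusted p = 0.0269, below the fold limit). Per 1000 CPM of the 8 markers, Il1rl1 had 67.4, 84.9 and 75.8 CPM without IL-10 and 74.4, 84.3 and 85.1 CPM with IL-10, with overlapping groups and a higher mean W/ IL-10 (76.0 ± 8.79 against 81.3 ± 5.98, SD, n = 3, exact permutation p = 0.6). Il1r2 on that scale had 4.85, 6.24 and 4.38 CPM without IL-10 and 5.17, 6.74 and 4.68 CPM with IL-10 (exact permutation p = 0.6). The part of such cells in the RNA of Il1rl1 and Il1r2 was not tested.

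**Figure D2:**
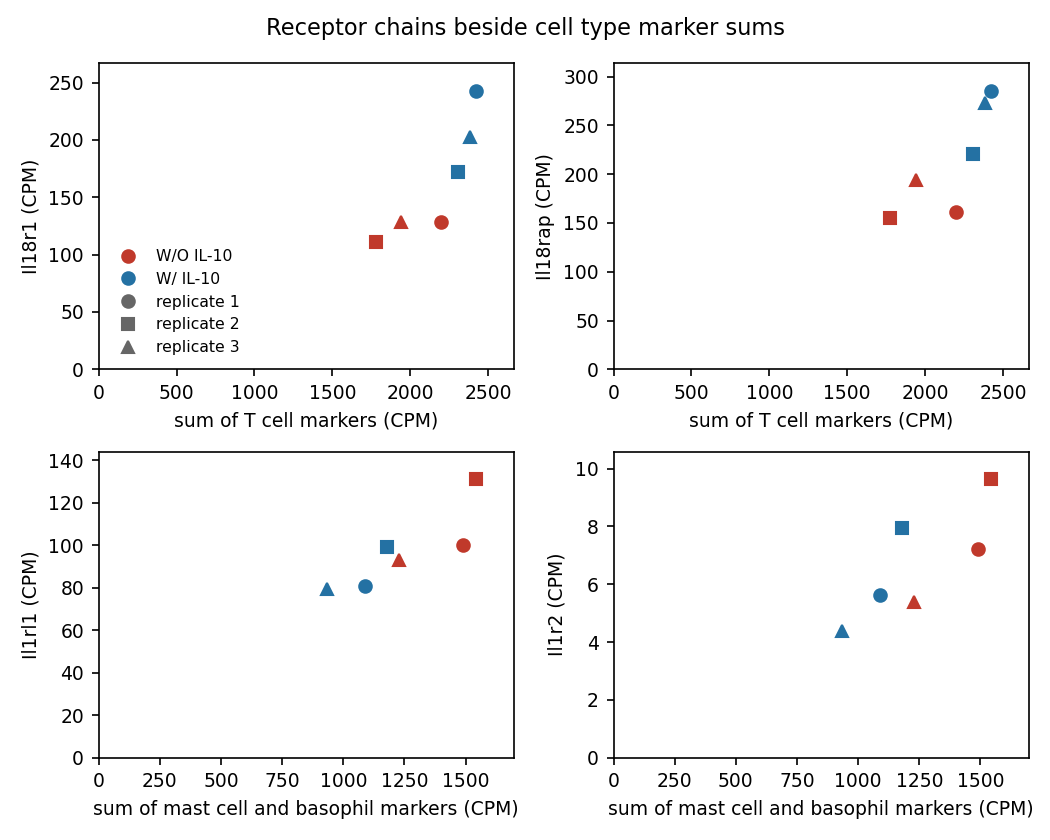
Each library's CPM of Il18r1 and Il18rap against the summed CPM of 10 T cell markers (upper panels), and of Il1rl1 and Il1r2 against the summed CPM of 8 mast cell and basophil markers (lower panels), all axes from 0. The W/ IL-10 libraries (blue) lie to the right of the W/O IL-10 libraries (red) in the upper panels and to the left in the lower ones, where replicate 2 (squares) is the highest of each group.

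The ratio of the adjacent genes Il18r1 and Il1rl1 separated the groups. Il18r1 per Il1rl1, in CPM, was 1.28, 0.846 and 1.39 in W/O IL-10 replicates 1 to 3 and 2.998, 1.73 and 2.55 in W/ IL-10 replicates 1 to 3, with no overlap (exact permutation p = 0.1). As Il18r1 alone already separated the groups and Il1rl1 was not called, this ratio is not a separate result on Il1rl1. Il1rap, the accessory protein shared by the receptors for IL-1 and IL-33, had 11.4, 14.9 and 14.8 CPM without IL-10 and 13.2, 15.6 and 14.6 CPM with IL-10. The libraries of both groups were interleaved, and replicate 1 was the lowest of each. Its means were 13.7 ± 2.01 and 14.5 ± 1.19 CPM (SD, n = 3), a log2FC of 0.08 with a 95% interval of -0.23 to 0.39 (adjusted p = 0.837, edgeR), and the sign turned to -0.05 without W/O IL-10 replicate 1 and to -0.01 with the GC and length offset. An antisense gene, Gm20319, lies over 4.86% of the exon bases of Il1rap and had at most 0.177 CPM in any library.

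Neither IL-12 receptor chain passed the test. Il12rb1, the chain that IL-12 shares with IL-23, had 189, 202 and 183 CPM without IL-10 and 168, 188 and 186 CPM with IL-10, with overlapping groups. The means of 192 ± 9.50 and 181 ± 10.8 CPM (SD, n = 3) gave a log2FC of -0.08 and the narrowest 95% interval of the 7 genes, -0.26 to 0.09 (adjusted p = 0.669, edgeR), and the sign turned to 0.03 with the GC and length offset. Il12rb2, the other chain of the IL-12 receptor and known as a mark of type 1 T cells, had 57.2, 65.0 and 57.7 CPM without IL-10 and 75.8, 56.1 and 73.2 CPM with IL-10. Replicates 1 and 3 lay above the W/O IL-10 range, and W/ IL-10 replicate 2 lay below it. Its means were 59.9 ± 4.35 and 68.3 ± 10.7 CPM (SD, n = 3), a log2FC of 0.19 with a 95% interval of -0.08 to 0.46 (adjusted p = 0.514, edgeR). Of the exon bases of Il12rb2, 40.04% lie under Serbp1 on the opposite strand, an RNA-binding protein gene at 564 ± 42.5 CPM without IL-10 and 628 ± 38.8 with IL-10 (SD, n = 3). Whether the counting used strand is not given in the sources used here, so reads of Serbp1 could have entered the count of Il12rb2 or have left both genes short. Il12rb1 per Il12rb2 was 3.31, 3.11 and 3.18 W/O IL-10 and 2.22, 3.35 and 2.54 W/ IL-10 (exact permutation p = 0.4).

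**Figure D3:**
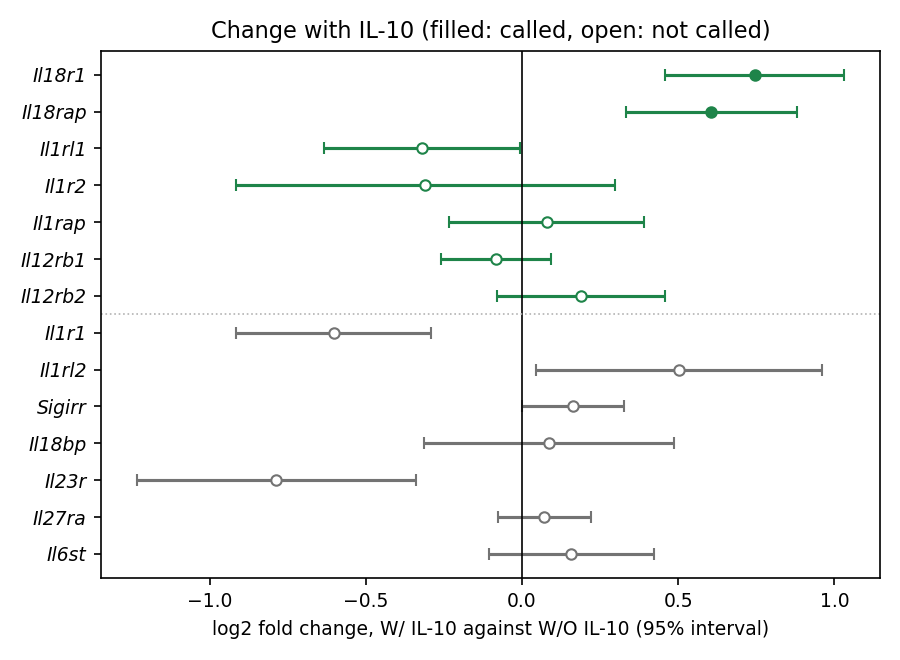
Log2 fold change (log2FC) W/ IL-10 against W/O IL-10 with its 95% interval from edgeR, for the 7 receptor chains (green) and 7 other chains and soluble binders of these families (grey). Filled points passed the call, which are Il18r1 and Il18rap, and open points did not.

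Per length of exons, Il12rb1 was the most abundant of the 7 W/O IL-10, at 46.7 ± 2.31 CPM per kb (SD, n = 3). It was followed by Il18r1 at 25.5 ± 2.15 and Il18rap at 25.2 ± 3.10 CPM per kb, whose ranges over the libraries overlapped. Il12rb2 with 15.8 ± 1.15 and Il1rl1 with 15.7 ± 2.93 CPM per kb came next and overlapped as well, and Il1r2 with 3.88 ± 1.12 and Il1rap with 1.21 ± 0.176 CPM per kb were the lowest. W/ IL-10, the levels were 44.1 CPM per kb for Il12rb1, 42.7 for Il18r1 and 38.5 for Il18rap, and the ranges of neighbours among these 3 overlapped. Il12rb2 at 18.0, Il1rl1 at 12.6, Il1r2 at 3.13 and Il1rap at 1.27 CPM per kb followed in the same order as W/O IL-10, without overlap between neighbours. The shared order is a description of levels and carries no test. When the longest transcript was used as the length, Il18rap stood before Il18r1 in both groups, whereas Il1rl1 stood before Il12rb2 in the W/O IL-10 group alone (20.4 against 19.99 CPM per kb, and 16.3 against 22.8 in the W/ IL-10 group).

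**Figure D4:**
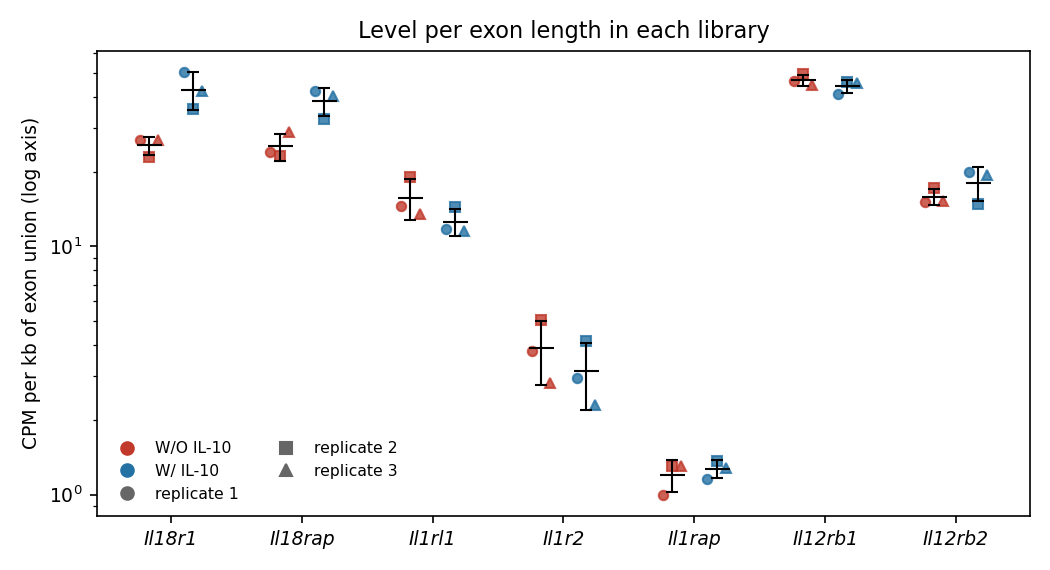
Level of the 7 receptor chain genes in CPM per kb of exon union on a log axis, with W/O IL-10 in red and W/ IL-10 in blue, libraries as points and mean ± SD (n = 3) as black bars. Il12rb1 is the highest W/O IL-10 with 46.7 CPM per kb, and W/ IL-10 the ranges of Il12rb1 and Il18r1 overlap.

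Other receptor chains and soluble binders of the same families were read from a list of 9 genes. Of these, 7 had a row and were tested, 0 were called, and 0 had an adjusted p under 0.05, which 2.19% of all tested genes had at any fold change. In the same edgeR fit 3 of the 7 had an unadjusted p under 0.05, limma-voom called 0 and DESeq2 called 2, Il1r1 and Il23r. Their median log2FC was 0.09. Il1r1, the signaling IL-1 receptor, had 19.9 ± 1.15 CPM without IL-10 and 13.1 ± 2.23 with IL-10 (SD, n = 3) without overlap, a log2FC of -0.60 (SE 0.14, adjusted p = 0.0685, edgeR), and was called under 5 of 15 other settings. Il23r, the chain that pairs with that of Il12rb1 to bind IL-23, had 11.04 ± 2.01 and 6.40 ± 1.30 CPM without overlap (log2FC -0.79, SE 0.20, adjusted p = 0.0898), likewise called under 5 of 15. Sigirr, an inhibitory member of the IL-1 receptor family, had 141 ± 2.49 and 158 ± 9.12 CPM (log2FC 0.16, adjusted p = 0.345), and Il1rl2, the IL-36 receptor, had 2.35 ± 0.172 and 3.32 ± 0.336 CPM (log2FC 0.50, adjusted p = 0.289). Il27ra, Il18bp and Il6st had log2FC values of 0.07, 0.09 and 0.16 with adjusted p of at least 0.58. Il1rapl1 and Il1rapl2 had no row.

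Along the chromosome 1 cluster, edgeR called the neighbours Il18r1 and Il18rap. From Il1r2 to Il18rap, with the 3 nearest protein-coding genes on each side, 12 genes are annotated, 10 had a row, 9 were tested and 2 were called, both higher. Over all tested genes 0.778% were called higher. Of the 9 tested genes, 8 had an unadjusted p under 0.05 (edgeR). As no share over all tested genes is given for it, this count is not read as an excess. Without overlap, 5 lay higher and 1 lower, beside 11.3% and 11.2% of all tested genes. By limma-voom the same 2 were called, and DESeq2 called 4, Il1r1 and Slc9a2 besides Il18r1 and Il18rap. Beyond Il18rap, the sodium-proton exchanger gene Slc9a2 had 14 to 20 counts without IL-10 and 34 to 58 counts with IL-10 (log2FC 1.40, adjusted p = 0.0748, edgeR), and was called under 4 of 15 other settings. Mfsd9 next to it had 14 to 17 and 20 to 36 counts (log2FC 0.81, adjusted p = 0.322). On the other side, Map4k4, a kinase gene, had 203 ± 24.3 and 237 ± 13.8 CPM (SD, n = 3, log2FC 0.23, adjusted p = 0.334). Rfx8 was under the filter with 0 to 8 counts, and Gm3646 and Slc9a4 had no row.

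**Figure D5:**
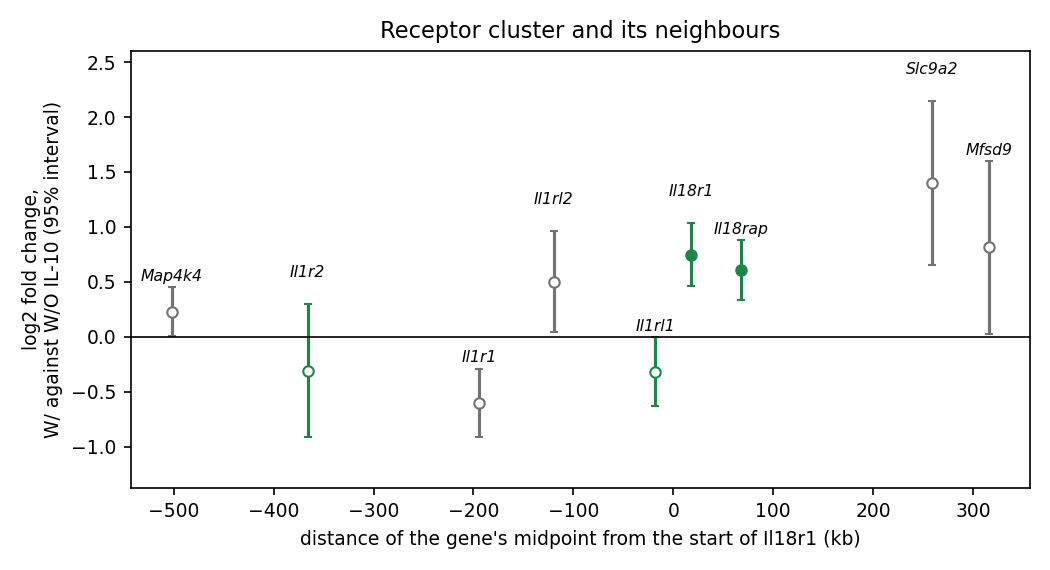
Log2 fold change (log2FC) W/ IL-10 against W/O IL-10 with its 95% interval (edgeR) for the 9 tested genes of the chromosome 1 receptor cluster and its neighbours, against the distance of each gene's midpoint from the start of Il18r1 in kb. Filled points were called and green points are receptor chains of the 7. Il18r1 and Il18rap are filled, with Il1rl1 below 0 directly beside Il18r1.

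The ligands of these receptors were scarce. Of 15 ligand genes, 10 had a row, 5 were tested and 0 were called by edgeR, DESeq2 or limma-voom, although 2 had an unadjusted p under 0.05, with a median log2FC of -0.45. Il18 had 16 to 34 counts without IL-10 and 39 to 53 counts with IL-10 without overlap (log2FC 1.03, SE 0.33, adjusted p = 0.185, edgeR). Il23a, a subunit of IL-23, had 33 to 43 counts without IL-10 and 11 to 18 W/ IL-10 (log2FC -1.33, SE 0.33, adjusted p = 0.0896). Il12a had 16 to 22 and 1 to 15 counts (log2FC -0.91, adjusted p = 0.541), and Ebi3, a subunit of IL-27, had 49 to 64 and 19 to 50 counts (log2FC -0.45, adjusted p = 0.577). Il1rn, the IL-1 receptor antagonist, had 1 to 15 and 5 to 17 counts. Il1a, Il1b, Il33, Il12b and Il27 were under the filter, with at most 17 counts in any library, and Il36a, Il36b, Il36g, Il36rn and Il1f10 had no row.

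Few signaling genes below the receptors were called, which is not a count of those that changed. Of 20 genes of the MyD88 and NF-kB pathway, all tested, 1 was called higher and 0 lower, with a median log2FC of 0.05. Over all tested genes 0.778% were called higher and 0.677% lower. Without overlap, 5 of the 20 lay higher and 3 lower, beside 11.3% and 11.2% of all tested genes. The gene called was Nfkbiz, an atypical nuclear IkB protein, with 62.2 ± 5.62 CPM without IL-10 and 96.2 ± 7.70 with IL-10 (SD, n = 3, log2FC 0.63, SE 0.09, adjusted p = 0.0146, edgeR). It was not called without W/O IL-10 replicate 1, where its log2FC was 0.55, nor without W/O IL-10 replicate 2, W/ IL-10 replicate 2 or W/ IL-10 replicate 3, where the adjusted p was 0.0541, 0.0655 and 0.111. The adaptor Myd88 had 49.5 ± 1.85 and 51.3 ± 3.75 CPM (log2FC 0.05, adjusted p = 0.822), Irak1 167 ± 6.43 and 172 ± 8.999 CPM, and the NF-kB inhibitor Tnfaip3 396 ± 53.1 and 305 ± 7.54 CPM without overlap (log2FC -0.38, adjusted p = 0.121). Of 8 genes of the IL-12 JAK-STAT pathway, all tested, 2 lay higher and 0 lower without overlap, with a median of 0.02. By the call, 1 of the 8 was higher and 0 lower. This was Socs3, an inhibitor of cytokine signaling, with 10.6 ± 0.905 CPM without IL-10 and 37.4 ± 7.10 with IL-10 (SD, n = 3, log2FC 1.82, SE 0.15, adjusted p = 0.00102, edgeR), and it was called under all 15 other settings. Stat4, the main STAT of the IL-12 receptor, had 70.5 ± 8.54 and 82.8 ± 11.5 CPM (log2FC 0.23, adjusted p = 0.425), and Stat3 had 381 ± 34.6 and 497 ± 13.1 CPM without overlap (log2FC 0.38, adjusted p = 0.072). Jak2 and Tyk2 had log2FC values of 0.08 and -0.14 (adjusted p = 0.765 and 0.489).

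Of 16 targets and lineage factors, 15 were tested, 2 were called higher and 0 lower, with a median log2FC of -0.14. Ifng, the type 1 cytokine induced by IL-12 with IL-18, had 241 to 305 counts without IL-10 and 538 to 580 counts with IL-10, that is 11.2 ± 1.67 and 25.7 ± 1.99 CPM (SD, n = 3, log2FC 1.19, SE 0.13, adjusted p = 0.00383, edgeR). Hlx, a homeobox factor of type 1 T cells, had 2.93 ± 0.0483 and 6.73 ± 1.31 CPM (log2FC 1.20, SE 0.19, adjusted p = 0.0213), with an adjusted p of 0.0613 to 0.129 without W/O IL-10 replicate 2, W/O IL-10 replicate 3, W/ IL-10 replicate 2 or W/ IL-10 replicate 3. The T-box factors differed in sign below the fold limit, Tbx21 with 23.9 ± 1.98 and 32.6 ± 0.324 CPM (log2FC 0.45, adjusted p = 0.0467) and Eomes with 517 ± 20.5 and 364 ± 16.7 CPM (log2FC -0.51, adjusted p = 0.0176). Gata3, the type 2 factor, had 34.9 ± 2.33 and 29.0 ± 2.10 CPM without overlap (log2FC -0.27, adjusted p = 0.228), Il13 had 84 to 135 and 54 to 98 counts (log2FC -0.26, adjusted p = 0.713), and Il5 was under the filter with at most 2 counts. Of 6 genes of ligand processing and receptor shedding, among them Casp1 and Adam17, 0 were called by edgeR, DESeq2 or limma-voom, 2 had an unadjusted p under 0.05 (edgeR), and the median was 0.16.

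For each receptor chain, the tested genes with the most similar log2 CPM over the 6 libraries were ranked by Pearson's r, as a description with no test. Il18r1 was most like Zfp300 (r = 0.987), Gpr89 (0.985) and Slc22a13b-ps (0.985). Il18rap was most like Gm17193 (r = 0.995), Cd8a (0.994) and Ss18 (0.992). Il1rl1 was closest to Sac3d1 (r = 0.995), Intu (0.992) and Ecm1 (0.987), and Il1r2 to Apc2 (0.986), Thrb (0.983) and Rap1gap2 (0.976). None of the genes named for Il1rl1 and Il1r2 is a mast cell or basophil marker of the list. Top ranks over all tested genes cannot show from which cells a gene's RNA came, and this was not tested. Il1rap was nearest to Tmem268 (r = 0.996), Gm7336 (0.99) and Ift74 (0.985), Il12rb1 to Gatad2a (0.982), 4930556H04Rik (0.978) and Echdc2 (0.975), and Il12rb2 to Gm38077 (0.989), Ddhd1 (0.986) and Tmem62 (0.983). With 6 libraries in 2 groups such values share the difference between the groups and the library totals, and each was picked as among the highest over all tested genes.

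As to the label of double negative T cells, the CD3 and T cell receptor genes of the T cell list were all well expressed, and Cd4 had 8 to 38 counts. Cd8a had 107 ± 11.7 CPM without IL-10 and 157.5 ± 16.6 with IL-10 (SD, n = 3, log2FC 0.56, adjusted p = 0.0369, edgeR). Cd8b1 had 38.1 ± 6.03 and 60.7 ± 5.15 CPM. RNA of both CD8 chains was thus counted in cells labelled as double negative, and its source was not tested. The summed NK cell markers lay at 552 to 586 CPM without IL-10 and 395 to 423 W/ IL-10, with Ncr1 called lower. Most of this sum was Eomes, at 517 ± 20.5 and 364 ± 16.7 CPM (SD, n = 3), which is also in the list of lineage factors. Of the others, Klrb1c had a log2FC of -0.27, Klra8 of 0.38 and Klri2 of 0.17 (adjusted p = 0.444, 0.748 and 0.746, edgeR). The regulatory T cell markers summed to 691 to 774 and 955 to 1098 CPM, with Ctla4 called higher and Foxp3 at 3 to 26 counts, and the gamma delta T cell markers to 277 to 306 and 299 to 327 CPM, with Sox13 called lower. Il2ra was the largest part of the regulatory T cell sum (419 ± 10.1 and 563 ± 56.8 CPM), whereas Lrrc32 lay lower without overlap (log2FC -0.52, adjusted p = 0.0423, edgeR). In the gamma delta list Trdc lay higher without overlap (log2FC 0.43, adjusted p = 0.0282) and Trdv4 lower (log2FC -0.48, adjusted p = 0.165). B cell markers summed to 69.9 to 181 and 70.0 to 122 CPM, and dendritic cell markers, of which Itgax was called higher and Flt3, Clec9a and Siglech were under the filter, to 118 to 191 and 112 to 169 CPM. Macrophage and neutrophil markers stayed between 3.18 and 11.8 CPM in sum, with Csf1r, Mrc1, Fcgr1, Mertk, Csf3r, Mpo, Elane and Retnlg under the filter. Among the marker calls of this paragraph, that of Ncr1 was lost with any library but W/O IL-10 replicate 1 left out (adjusted p up to 0.218, edgeR), that of Sox13 without W/O IL-10 replicate 2 or any W/ IL-10 library (up to 0.129) and that of Ctla4 without W/ IL-10 replicate 1 or 3 (up to 0.0705). The part of any of these cells in the values of the receptor chains was not tested.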

How the data were processed

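RNA of 6 cDNT samples, 3 per group, was sequenced by the study on an Illumina HiSeq. The authors deposited whole-number counts per Ensembl gene without normalization for 29393 genes, of which 29332 had a symbol in GENCODE M21 (GRCm38). The submitters' processing notes name HISAT2, HTSeq and GRCm38, whereas the paper's methods name TopHat, Cufflinks and UCSC annotation, and versions and the strand setting are not given in the sources used here. The libraries held 21619420 to 23967088 counts.

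TMM factors, CPM and the quasi-likelihood test were computed with edgeR 4.0.16 (R 4.3.3) on the 14916 genes that reached 10 counts in 3 or more libraries, with Benjamini-Hochberg adjustment over all of them. Genes were called at a fold change of at least 1.5 and an adjusted p under 0.05. The standard error is the log2 fold change divided by the square root of F. Correlations used log2(CPM + 1), and single values an exact permutation test. Alternatives were DESeq2 1.42.0, upper-quartile factors, other filters, limma-voom (limma 3.58.1), the replicate block, glmTreat, an offset for GC content and length (alone and with the block), and each library left out. For genes other than the 7 they were added after seeing the data.

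The 7 genes and all lists were chosen with earlier results of these data known. Named were the 7 genes, called list genes, ligands and receptor chains under the filter, up to 4 further genes per list by mean CPM, the chromosome 1 cluster and the 3 most correlated genes. Other genes named, such as Tnfaip3, Hlx, Il13, Tbx21, Gata3 and Cpa3, were chosen with their values known. On simulated counts with 200 changed genes, edgeR recovered 31.5% at a fold of 1.5 (4.5% false calls, 14942 genes) and 65.5% at a fold of 2 (7.7% false calls, 14908 genes). DESeq2 recovered 52.5% with 26.1% false calls at a fold of 1.5, and 70% with 13.6% at a fold of 2. These shares count genes by an adjusted p under 0.05 alone, without the fold limit, so they do not describe the calls made here.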

Additional observations from a re-analysis of the deposited data

How the results depend on the processing

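Over all genes, 217 were called, and 359 with DESeq2, 637 with no filter on low counts, 15 with a fold change of 1.5 as the null, 330 with the GC and length offset and replicate block together, and 35 to 251 with a library left out. Of the 7 receptor chains 2 were called, and 0 with a fold change of 1.5 as the null, 1 with the GC and length offset, 1 with that offset and the replicate block, and 0 to 2 with a library left out. None of the 7 was called without W/O IL-10 replicate 2, W/ IL-10 replicate 1 or W/ IL-10 replicate 3, and 1 was without W/O IL-10 replicate 1 or 3. Both Il18r1 and Il18rap were called under DESeq2, upper-quartile factors, both other filters, limma-voom and the replicate block. Of the other genes of the pathway, 4 were called, and 8 with no filter, 1 with a fold change of 1.5 as the null, and 2 to 4 with a library left out. The sign of Il12rb1 turned to 0.03 and that of Il1rap to -0.01 with the GC and length offset, with and without the replicate block, and Il1rap ranged from -0.05 (without W/O IL-10 replicate 1) to 0.14 with a library left out, with no call in any of these. Il1rl1 had an adjusted p of 0.0252 with no filter (log2 fold change -0.33) and 0.0193 with the offset and block (-0.39), below the fold limit in both. The cause of these shifts was not tested. With the longest transcript as length, 3 of 7 chains kept their rank in the W/O IL-10 group.

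The labels give both groups the replicate numbers 1 to 3 and do not say what equal numbers share. The correlation across genes, between libraries of equal number, of their departures from the mean of their group was 0.052, -0.057 and 0.114. The numbers were not taken as pairs in the main fit. A correlation over all tested genes cannot exclude pairing, as it may miss a shared source that affects few genes. Under the replicate block, 196 genes and the same 2 receptor chains were called, at log2 fold changes of 0.73 for Il18r1 (adjusted p = 0.0155) and 0.60 for Il18rap (adjusted p = 0.0313).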
